A study of Mus musculus with 2 samples.

Results

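Serpins are a family of proteins named for their inhibition of serine proteases, and many of those found in blood plasma are made by hepatocytes. An inhibitory serpin exposes a flexible loop, the reactive centre loop, as bait. When a protease cuts the loop after the residue called P1, the loop folds into the body of the serpin and the protease stays bound to it and distorted. Other family members have no inhibitory activity and carry hormones or assist in protein folding. Here the family was taken as every gene symbol that starts with Serpin, a letter from a to i and a number, which gave 63 of the 22609 symbols counted.

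Liver transcripts of male C57BL/6 mice were sequenced as 2 libraries. One library was labelled as coming from mice with a whole-body knockout of Lrg1, a gene for a secreted glycoprotein made in the liver, and the other came from C57BL/6J wild-type mice. Both groups received a diet with 45% of its calories from fat, begun at 8 weeks of age and kept up for 16 weeks. The labels give neither the kind of knockout allele nor whether a library stands for 1 mouse or for several, and no group on another diet was analysed here.

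The library labelled Lrg1 knockout held 18738397 reads in genes and the wild-type library 23311906. Levels are given in reads and in CPM, reads relative to the size of the library after scaling by trimmed means of M-values. On that scale 1 read was worth 0.0519 CPM in the library labelled knockout and 0.0441 CPM in wild type. The liver label was checked against 12 hepatocyte genes, such as Alb and Ttr, which together reached 124877 CPM in the library labelled knockout and 143311 CPM in wild type. Lrg1 itself had 17572 reads, or 911 CPM, in the library labelled knockout and 26958 reads, or 1190 CPM, in wild type, a log2 ratio of -0.39. Reads of the targeted gene were therefore plentiful where a knockout was labelled, and every direction below is between 2 libraries named by their labels. With 1 library in each group there is no replicate check and no test, and the intervals are exact 95% intervals that cover counting error only. In bulk tissue, fewer cells of a type and less RNA per cell cannot be told apart.

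The coding DNA of the loops shows how alike and how unlike the members are. Mouse carries several near-identical copies of alpha-1-antitrypsin, the main elastase inhibitor of plasma in humans, and the copies differ within the coding DNA of the loop. The sequences run 5′ to 3′ from the glycine codon of the hinge, are taken from GENCODE M21 transcripts of chromosome 12, and carry the P1 codon in capitals.
Serpina1a: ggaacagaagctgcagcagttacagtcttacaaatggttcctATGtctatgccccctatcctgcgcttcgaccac
Serpina1b: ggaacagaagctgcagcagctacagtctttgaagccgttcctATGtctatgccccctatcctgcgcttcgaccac
Serpina1c: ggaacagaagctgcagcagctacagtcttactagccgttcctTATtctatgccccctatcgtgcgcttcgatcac
Serpina1d: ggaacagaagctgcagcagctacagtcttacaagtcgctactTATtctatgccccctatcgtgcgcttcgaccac
Serpina1e: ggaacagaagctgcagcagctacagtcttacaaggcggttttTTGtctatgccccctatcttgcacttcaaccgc
Of the 75 positions, 18 differ among the 5 copies, 1 of them in the first 24 bases and 12 in bases 25 to 48. The P1 codon reads methionine in Serpina1a and Serpina1b, tyrosine in Serpina1c and Serpina1d, and leucine in Serpina1e. Over the whole coding sequence the copies share 96.3% to 98.5% of bases in the 10 pairs.

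The loops of the 3 Serpina3 copies with the most reads are shown because these copies had unlike ratios. They come from GENCODE M21 transcripts of chromosome 12, and the capitals mark the positions at which the 3 differ.
Serpina3k: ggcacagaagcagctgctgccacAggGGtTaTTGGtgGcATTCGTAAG
Serpina3m: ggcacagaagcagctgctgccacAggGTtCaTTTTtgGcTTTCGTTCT
Serpina3n: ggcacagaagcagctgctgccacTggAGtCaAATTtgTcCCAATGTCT
The first 24 bases hold 1 differing position and the next 24 hold 17. Coding identity is 91.1% between Serpina3k and Serpina3m, 85.2% between Serpina3m and Serpina3n, and 82.7% between Serpina3k and Serpina3n.

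Serpine2, protease nexin-1, is the member of the clotting group at least 2-fold higher in the library labelled knockout, and its loop is set beside that of antithrombin, Serpinc1. The transcripts are those of GENCODE M21 on chromosome 1. The P1 codon, in capitals, encodes arginine in both, the residue after which thrombin cuts.
Serpine2: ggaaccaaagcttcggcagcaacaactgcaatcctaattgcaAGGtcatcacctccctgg
Serpinc1: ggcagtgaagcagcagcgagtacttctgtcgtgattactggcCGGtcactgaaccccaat

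Of the 63 members, 29 had at least 50 reads summed over both libraries and were given ratios. No member lay close to that limit. The fewest reads inside it were those of Serpina3f, 74 in the library labelled knockout and 75 in wild type. The most outside it were those of Serpina3h, 15 in the library labelled knockout and 12 in wild type. The other 34 members summed to 71 reads in the library labelled knockout and 72 in wild type. Among these, 14 had no read in either library, which allows up to 0.156 CPM in the library labelled knockout and 0.132 CPM in wild type (3 counts), and 14 had 1 to 9 reads. The remaining 6 were Serpina3c, Serpina3h, Serpina3i, Serpina9, Serpinb1c and Serpini1. Serpina5, which inhibits activated protein C in humans, had 1 read in the library labelled knockout and 3 in wild type.

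Serpin genes took 514406 reads in the library labelled knockout, 2.75% of its gene reads (2.74% to 2.75%), and 573058 reads in wild type, 2.46% (2.45% to 2.46%). The summed CPM was 1.05 times as high in the library labelled knockout. Scaled by the length of the main transcript, Serpina3k ranked first in both libraries, at 5562 CPM per kilobase in the library labelled knockout and 4999 in wild type. Serpina1b ranked next, at 2660 CPM per kilobase in the library labelled knockout and 2887 in wild type. Both ranks were the same per kilobase of coding sequence.

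**Figure D1:**
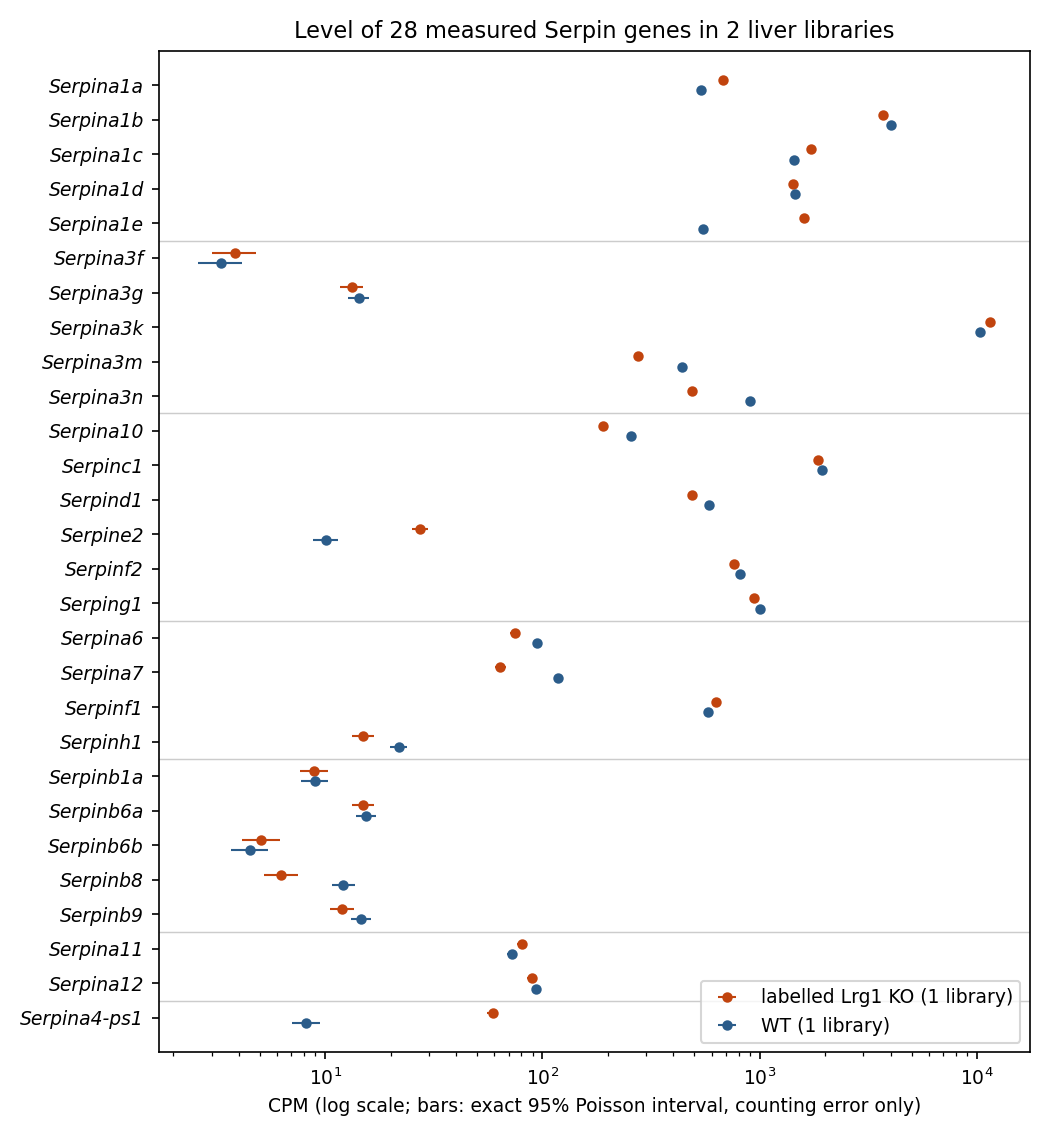
CPM of 28 measured Serpin genes on a log scale, grouped by role, in the library labelled Lrg1 knockout and the wild-type library (1 library each), with exact 95% Poisson intervals. Levels run from 3.84 CPM for Serpina3f to 11442 CPM for Serpina3k in the library labelled knockout, and the points of most genes lie close together.

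At least 2-fold higher in the library labelled knockout were 3 of the 29, namely Serpina4-ps1, Serpina1e and Serpine2, against a background of 1.70% of all 11411 measured genes. At least 2-fold lower was 1 member, against 2.50% of measured genes. At a threshold of 1.5-fold the higher members were the same 3, where 5.85% of measured genes passed, and 5 were lower, where 6.91% passed. Among these were Serpinb8, Serpina3n, Serpina7 and Serpina3m. The median log2 ratio of the members was -0.07, with 10 higher and 19 lower, beside -0.01 for all measured genes, of which 5516 were higher and 5895 lower. Under scaling by total count the split of members was 15 higher and 14 lower, so that the family as a whole has no direction that holds across scalings.

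**Figure D2:**
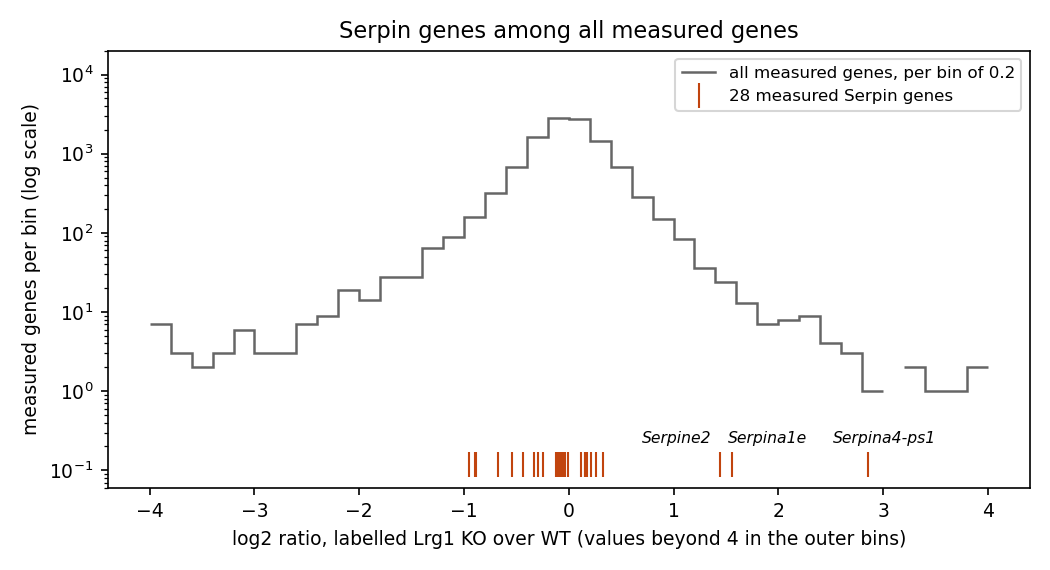
Number of measured genes per bin of log2 ratio, library labelled Lrg1 knockout over wild type, on a log scale, with a tick under the curve for each of 28 Serpin genes. Most ticks lie between -0.95 and 0.33, and 3 named genes stand outside at 1.44, 1.55 and 2.85.

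The alpha-1-antitrypsin copies were unlike one another, with Serpina1e alone past 2-fold. Serpina1e had 30930 reads, or 1604 CPM, in the library labelled knockout and 12369 reads, or 546 CPM, in wild type, a ratio of 2.94 (2.877 to 2.9997). Serpina1b, the copy with the most reads, had 71501 reads, or 3708 CPM, in the library labelled knockout and 91157 reads, or 4024 CPM, in wild type, a ratio of 0.921 (0.912 to 0.930). The other copies lay between these ratios. Serpina1a had 677 CPM in the library labelled knockout and 539 in wild type (ratio 1.26), and Serpina1c had 1714 CPM in the library labelled knockout and 1432 in wild type (ratio 1.197). Serpina1d had 1421 CPM in the library labelled knockout and 1459 in wild type, a log2 ratio of -0.04 that turned to 0.04 under scaling by total count. Serpina1f had no read in either library.

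Summed over the copies, alpha-1-antitrypsin differed less than Serpina1e did. The sum was 9124 CPM in the library labelled knockout and 8001 CPM in wild type, a ratio of 1.14 (1.13 to 1.15), and without Serpina1e the ratio was 1.009 (1.002 to 1.016). The make-up of that sum therefore differed between the libraries. Serpina1e gave 17.6% of Serpina1 reads in the library labelled knockout and 6.82% in wild type, while Serpina1b gave 40.6% in the library labelled knockout and 50.3% in wild type. The shares of the other copies were closer. Serpina1a gave 7.42% in the library labelled knockout and 6.74% in wild type, and Serpina1c 18.8% and 17.9% in the same order. Serpina1d gave 15.6% in the library labelled knockout and 18.2% in wild type.

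How far reads of 50 bases can tell these copies apart was read from the transcripts. Of the 50-base windows of Serpina1e, 62.1% occur in no transcript of another gene, the highest share among the copies. The share is 52.9% for Serpina1b, 49.1% for Serpina1d, 20.7% for Serpina1c and 19.1% for Serpina1a. Since reads with several alignments were held apart from gene counts, levels of different copies can be understated by unlike amounts. Per window found in no other gene, Serpina1c had the most reads in the library labelled knockout, 121, with 119 in wild type. Serpina1b had 100.4 reads per such window in the library labelled knockout and 128 in wild type, and Serpina1e had 39.96 in the library labelled knockout and 15.98 in wild type. The order of levels among the copies thus depends on the measure, and each copy's level is uncertain. The share of lines for alignments that were not unique was itself higher in the library labelled knockout, 58.0%, than in wild type, 50.3%, and its part in these ratios was not tested.

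**Figure D3:**
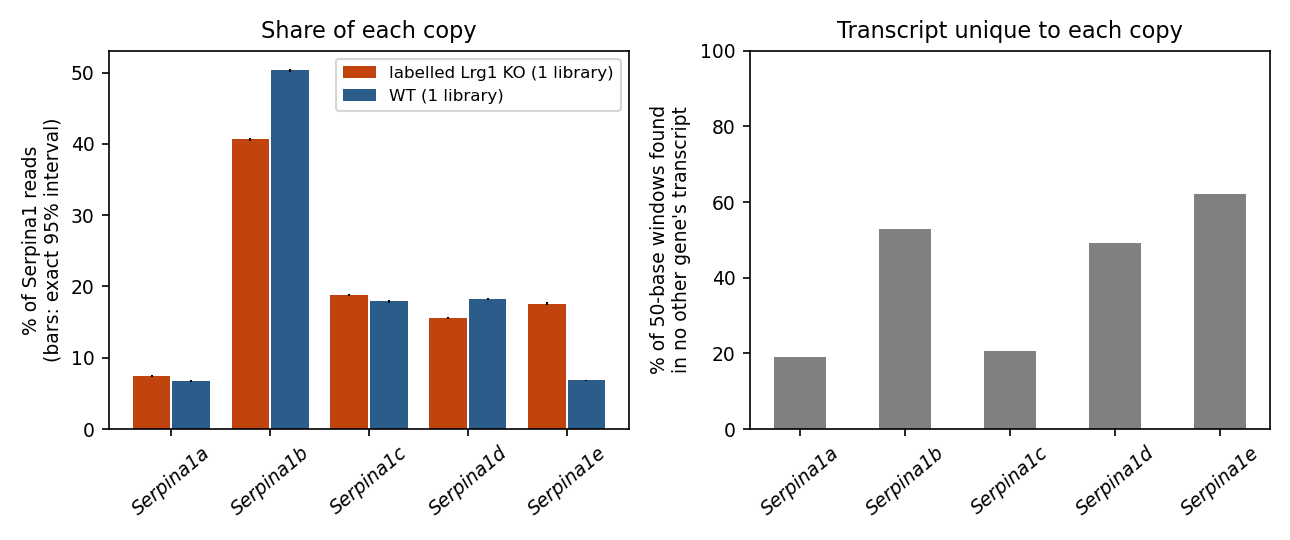
Left, the share of Serpina1 reads held by each copy in the library labelled Lrg1 knockout and the wild-type library, in percent with exact 95% intervals. Right, the percent of each copy's 50-base transcript windows found in no other gene, which is 62.1% for Serpina1e, the copy whose share was 17.6% in the library labelled knockout and 6.82% in wild type.

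The promoters of these copies were compared because they sit beside each other and had unlike ratios. In the RefSeq table of GRCm38.p6, which held 52 of the 63 members and 21 of the 29 measured ones, each of the 5 copies has the letters GTTAAT, a part of the site bound by HNF1, a regulator of liver genes. The windows below are on the minus strand, with the motif in capitals.
Serpina1a, chr12:103863608-103863667: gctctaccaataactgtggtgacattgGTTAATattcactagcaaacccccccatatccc
Serpina1b, chr12:103738183-103738242: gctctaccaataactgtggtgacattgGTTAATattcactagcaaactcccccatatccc
Serpina1c, chr12:103904945-103905004: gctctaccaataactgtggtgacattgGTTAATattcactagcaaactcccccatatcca
Serpina1d, chr12:103773617-103773676: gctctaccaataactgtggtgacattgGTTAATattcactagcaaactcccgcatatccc
Serpina1e, chr12:103956943-103957002: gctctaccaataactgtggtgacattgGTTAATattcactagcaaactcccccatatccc
Of the 60 positions, 3 differ among the 5 windows, and the windows of Serpina1e and Serpina1b, the copies with the highest and lowest ratio, are identical. The motif lies at -78 from the annotated start in Serpina1e and at -26 in Serpina1b. The bases that follow the motif in the Serpina1b promoter also follow it in that of Serpina1e. The 2 positions therefore differ by where the start is annotated. Over the aligned promoters the identity of these 2 copies was 97.6% across 250 bases.

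Searched on both strands, GTTAAT was present in 7 of the 21 measured members with a promoter, and in 7.10% of all 32851 promoters. Those 7 were the 5 copies above with Serpina7 and Serpinb8. A member was counted if any of its promoters held the letters, while the shares are over single promoters, so the units differ. The STAT motif TTCNNNGAA was present in Serpina11, Serpina3f, Serpina3g and Serpinb6a, and in 8.30% of all promoters. The letters TTGCGCAA and CACGTG were in none of the 21, and in 0.183% and 7.15% of all promoters.

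The Serpina3 genes correspond to that of alpha-1-antichymotrypsin, a single gene in humans and a set of copies in mice. Of 11 members, 5 were measured, and most of the reads belonged to Serpina3k, whose product is known as contrapsin. Serpina3k had 220639 reads, or 11442 CPM, in the library labelled knockout and 232929 reads, or 10283 CPM, in wild type, a ratio of 1.11 (1.11 to 1.12). Serpina3n, an acute-phase gene, had 9364 reads, or 486 CPM, in the library labelled knockout and 20512 reads, or 905 CPM, in wild type, a ratio of 0.536 (0.523 to 0.550). Serpina3m had 5288 reads, or 274 CPM, in the library labelled knockout and 9942 reads, or 439 CPM, in wild type, a ratio of 0.625 (0.604 to 0.646). Both were thus lower while their abundant neighbour was not.

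The sum over all 11 Serpina3 copies had a ratio of 1.05, and the sum without Serpina3k a ratio of 0.571 (0.560 to 0.582). Serpina3k took 93.6% of Serpina3 reads in the library labelled knockout and 88.3% in wild type. These copies are less alike than those of alpha-1-antitrypsin, and 80.9% of the windows of Serpina3m, 86.0% of those of Serpina3k and 93.1% of those of Serpina3n occur in no other gene. Serpina3g, an inhibitor of cysteine cathepsins in blood cells, had 13.2 CPM in the library labelled knockout and 14.3 in wild type, and Serpina3f had 3.84 CPM in the library labelled knockout and 3.31 in wild type. The intervals of both ratios include 1.

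Among the inhibitors of clotting, fibrinolysis and complement described here, protease nexin-1 was higher in the library labelled knockout, and the other 5 had ratios between 0.738 and 0.962. Serpine2, the gene of protease nexin-1, which inhibits thrombin and urokinase at cell surfaces, had 529 reads, or 27.4 CPM, in the library labelled knockout and 228 reads, or 10.1 CPM, in wild type. Its ratio was 2.73 (2.33 to 3.20). All of its 50-base windows (100%) occur in no other gene.

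Antithrombin, Serpinc1, had 1857 CPM in the library labelled knockout and 1930 in wild type, a log2 ratio of -0.06 that was 0.03 under scaling by total count. Heparin cofactor II, Serpind1, had 489 CPM in the library labelled knockout and 582 in wild type (ratio 0.841). The protein Z-dependent inhibitor of factor X, Serpina10, had 189 CPM in the library labelled knockout and 256 in wild type (ratio 0.738). Alpha-2-antiplasmin, Serpinf2, and the C1 inhibitor, Serping1, had ratios of 0.938 and 0.940. For Serpinc1, 41.2% of windows occur in no other gene, because its annotated transcript overlaps Zbtb37 on the opposite strand. Zbtb37 had 108 reads in the library labelled knockout and 121 in wild type, few beside the 35819 of Serpinc1 in the library labelled knockout and its 43718 in wild type. These counts cannot show how many reads of the overlap were left out as ambiguous, because the strandedness of counting is not given.

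**Figure D4:**
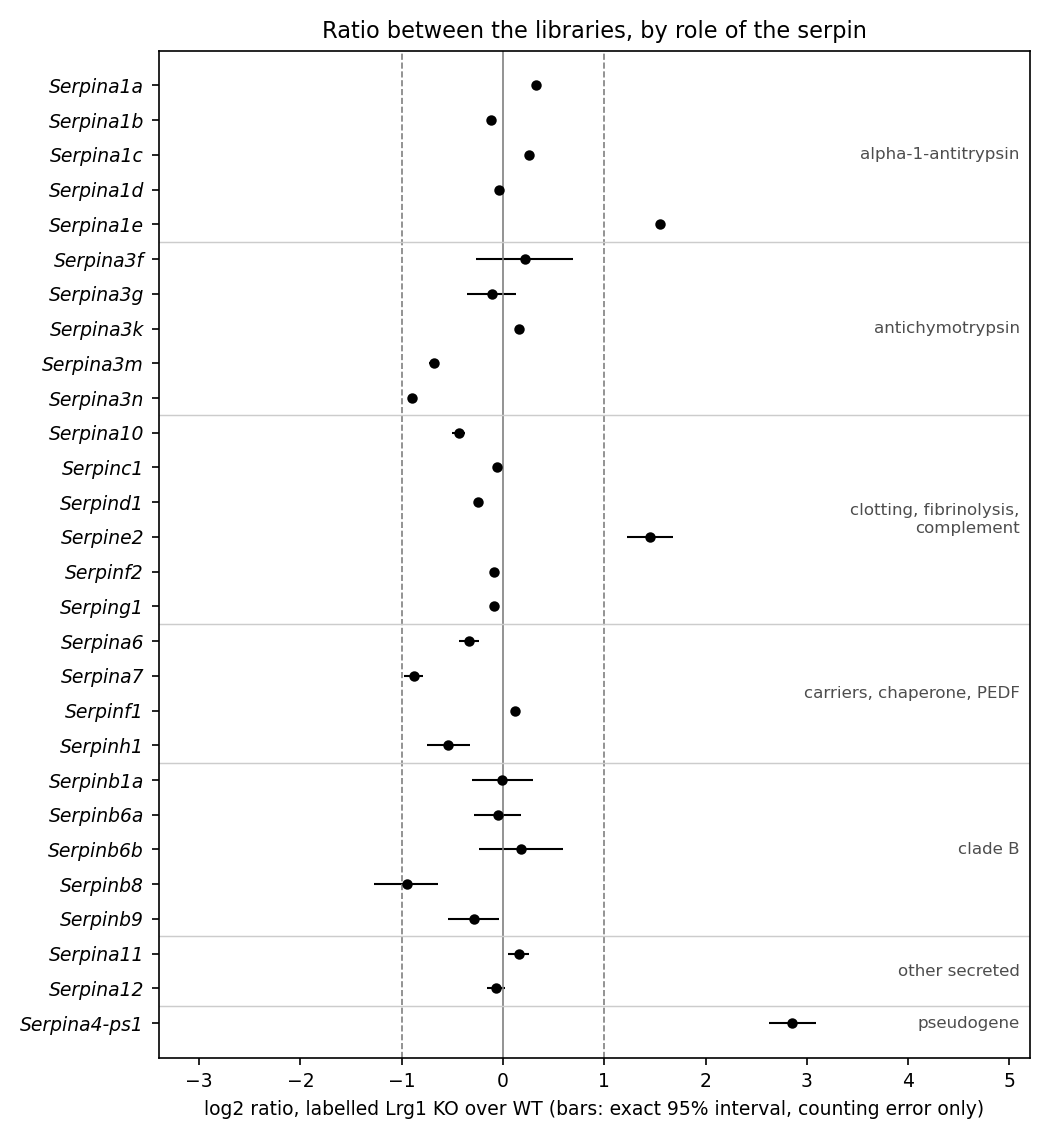
Log2 ratio, library labelled Lrg1 knockout over wild type, of 28 measured Serpin genes by role, with exact 95% intervals for counting error and dashed lines at 2-fold. Serpina4-ps1, Serpina1e and Serpine2 lie right of the upper line, and 6 intervals include a ratio of 1.

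Of the serpins without inhibitory function, the thyroxine carrier was the most different. Serpina7, thyroxine-binding globulin, had 1235 reads, or 64.0 CPM, in the library labelled knockout and 2676 reads, or 118 CPM, in wild type, a ratio of 0.542 (0.506 to 0.580). Serpina6, the corticosteroid carrier, had 74.99 CPM in the library labelled knockout and 94.7 in wild type (ratio 0.792), and Serpinf1, pigment epithelium-derived factor, had 628 CPM in the library labelled knockout and 578 in wild type (ratio 1.09). The collagen chaperone of the endoplasmic reticulum, Serpinh1, also called HSP47, had 289 reads, or 14.99 CPM, in the library labelled knockout and 493 reads, or 21.8 CPM, in wild type, a ratio of 0.689 (0.593 to 0.798). Hence 3 of these 4 genes were lower and Serpinf1 was higher.

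Genes of collagen synthesis, which HSP47 assists, and heat shock genes, among which it is counted, were also mostly lower. Among all measured genes, 51.7% were lower and the median log2 ratio was -0.01. Of 13 measured collagens and collagen-modifying enzymes, 10 were lower and 3 higher, with a median log2 ratio of -0.33. Col1a1, a chain of fibrillar collagen, had 157 reads in the library labelled knockout and 387 in wild type, a log2 ratio of -1.07, and P4ha1, a prolyl hydroxylase, had one of -0.66. Fkbp10 and Col6a1 were the highest, at 0.49 and 0.10, with ratio intervals that include 1. Fkbp10 had 30 reads in the library labelled knockout and 25 in wild type. Under scaling by trimmed means of M-values, all 11 measured heat shock genes were lower, with a median of -0.43. Hspa1b and Hsph1 were the lowest, at -1.30 and -0.93, and Hspd1 and Hspb1 the nearest to even, at -0.08 and -0.18. The interval of the Hspb1 ratio includes 1. Scaling by total count moved the median of all measured genes from -0.01 to 0.07. The sign of a value as near 0 as that of Hspd1 thus depends on scaling. A link between these lists and Serpinh1 was not tested.

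Clade B serpins stay inside cells for the most part and guard them against proteases released from granules. Of 27 members, 5 were measured and 10 had no read in either library. Serpinb8, an inhibitor of furin in humans, had 121 reads, or 6.27 CPM, in the library labelled knockout and 275 reads, or 12.1 CPM, in wild type, a ratio of 0.517 (0.414 to 0.642). Serpinb9, the granzyme B inhibitor, had 11.98 CPM in the library labelled knockout and 14.7 in wild type, a ratio of 0.817 (0.688 to 0.970). The intervals of the remaining 3 ratios include 1. Serpinb1a, an inhibitor of neutrophil elastase, had 8.92 CPM in the library labelled knockout and 8.96 in wild type. Serpinb6a had 14.9 CPM in the library labelled knockout and 15.5 in wild type, while Serpinb6b had 5.08 CPM in the library labelled knockout and 4.50 in wild type. Serpinb2 had 5 reads in the library labelled knockout and 0 in wild type, too few for a ratio.

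Serpina4-ps1, annotated as a pseudogene, had the highest ratio of the family. It had 1140 reads, or 59.1 CPM, in the library labelled knockout and 185 reads, or 8.17 CPM, in wild type, a ratio of 7.24 (6.19 to 8.50), at the 99.9 percentile of measured genes. All of its windows (100%) occur in no other gene. Serpina12, vaspin, an inhibitor of kallikreins linked to insulin sensitivity, had 89.3 CPM in the library labelled knockout and 93.7 in wild type, a ratio whose interval includes 1. Serpina11 had 80.6 CPM in the library labelled knockout and 72.4 in wild type.

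Serpina4-ps1 and Serpina1e lie in 1 cluster with 24 members on chromosome 12. In GENCODE M21 the gene order puts Serpina11, Serpina9 and Serpina12 between them. Of these, Serpina11 had a log2 ratio of 0.15, Serpina12 had -0.07, and Serpina9 was not measured, with 8 reads in the library labelled knockout and 3 in wild type. Serpina1c, on the other side of Serpina1e, had 0.26. The 2 genes past 2-fold were therefore not a run of neighbours.

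**Figure D5:**
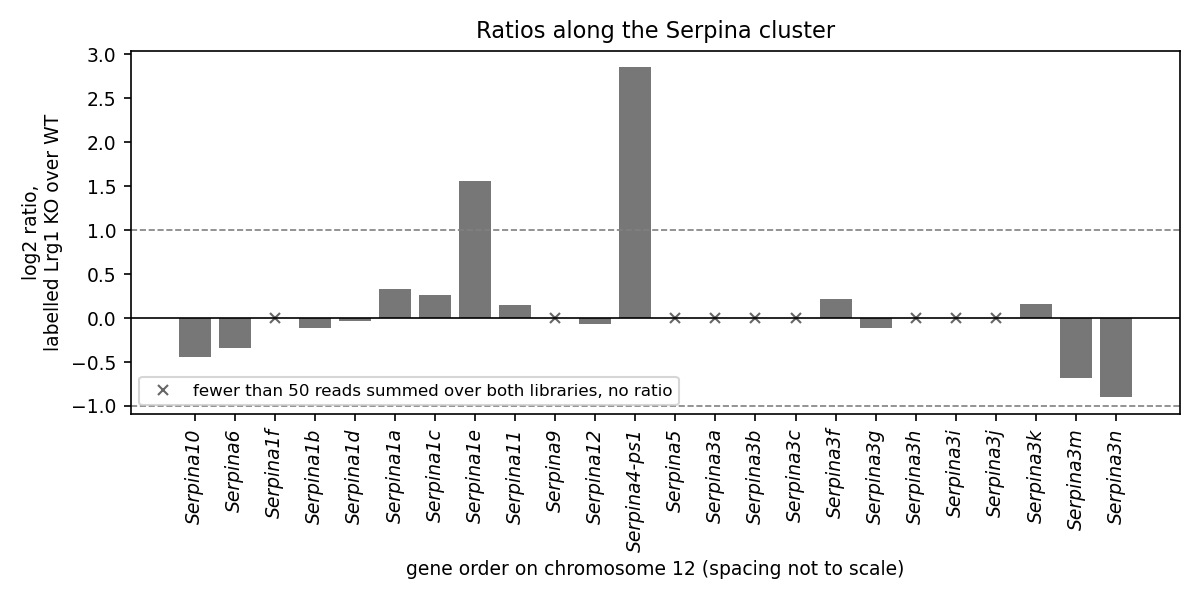
Log2 ratio, library labelled Lrg1 knockout over wild type, of the 24 Serpin genes of the chromosome 12 cluster in gene order, with crosses for genes under 50 reads. Serpina1e at 1.55 and Serpina4-ps1 at 2.85 pass the dashed 2-fold line, with Serpina11 at 0.15 and Serpina12 at -0.07 between them.

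Proteases that serpins act on, with relatives of them, and other inhibitors were read from lists beside the members. Of 20 measured genes in the protease list, 15 were lower and 5 higher, none by 2-fold, with a median log2 ratio of -0.11. Cela1, a pancreatic-type elastase, was highest at 0.47, followed at 0.36 by Hgf, a growth factor of protease descent without catalytic activity, and Plat, tissue plasminogen activator, was lowest at -0.75 with 18 reads in the library labelled knockout and 36 in wild type. Hgfac followed at -0.30. Of 25 measured genes in the list of other inhibitors, which includes Agt, 14 were lower and 11 higher, none by 2-fold, with a median of -0.05. Tfpi and Timp3 were highest at 0.39 and 0.26, and Slpi and Wfdc2 lowest at -0.70 and -0.46. Agt, angiotensinogen, one of the 14 lower, is a serpin by descent whose symbol lies outside the rule, and it was named after its value was seen. Its reads were 12655 in the library labelled knockout and 18245 in wild type, a log2 ratio of -0.30. The splits of both lists were taken under trimmed means of M-values alone, where 51.7% of all measured genes were lower. Scaling by total count moved the median of all measured genes from -0.01 to 0.07, so the sign of small values depends on scaling.

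Markers of some cell types that express serpins also differed. Their splits were taken under trimmed means of M-values alone, where 51.7% of all measured genes were lower. All 12 hepatocyte genes were measured, 10 lower and 2 higher, with Tat and Apoa1 at 0.66 and 0.25 and Cps1 and Hnf4a at -0.54 and -0.51. Among those lower, Ttr at -0.03 and Fgb at -0.02 lay near 0, where the sign depends on scaling. Sinusoidal endothelial markers summed to 437 CPM in the library labelled knockout and 308 CPM in wild type, with 9 of 10 higher. Stellate cell markers were close to even, at 401.2 CPM in the library labelled knockout and 400.8 CPM in wild type. Of these, 7 of 9 were higher, with a median log2 ratio of 0.05, and Col1a1 and Col3a1 were lower at -1.07 and -0.56. Sinusoidal endothelial and stellate cells can both express Serpine2. Kupffer cell markers summed to 532 CPM in the library labelled knockout and 657 CPM in wild type. Of these, 9 of 10 were lower, with a median log2 ratio of -0.33. Clec4f and Vsig4 were the highest at 0.15 and -0.17, and Marco and Timd4 the lowest at -2.04 and -0.77. The mesothelial and adipocyte list summed to 11.5 CPM in the library labelled knockout and 39.4 CPM in wild type, of which Cfd gave 5.39 CPM in the library labelled knockout and 31.4 CPM in wild type, with Lep and Plin1 at 0. The part of these shifts in the ratios of Serpine2, Serpinh1 and the clade B genes was not tested.

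The remaining marker lists were low or close to even. Neutrophil markers summed to 8.19 CPM in the library labelled knockout and 7.42 CPM in wild type. All 3 measured ones were higher, with ratio intervals that include 1. T and NK cell markers gave 77 reads in the library labelled knockout and 55 in wild type, with none measured. Platelet markers summed to 2.54 CPM in the library labelled knockout and 3.71 CPM in wild type, with Gp1ba at 0, and cholangiocyte markers to 41.2 CPM in the library labelled knockout and 42.8 CPM in wild type. The acinar list stood at 23.3 CPM in the library labelled knockout and 16.7 CPM in wild type, nearly all from Cela1, with Prss1, Prss2, Cpa1, Pnlip, Amy2a5 and Ctrb1 at 0.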

How the data were processed

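Each liver library was prepared from roughly 500 ng of RNA by oligo(dT) enrichment and strand marking, and sequenced from 1 end over 50 bases, per the labels' protocols. The deposited values are whole read counts of each symbol without normalization, made by the authors with bcl2fastq, TopHat2 and HTSeq on mm9, per the submitters' processing notes. The gene annotation, tool versions and strandedness used in counting are not given in the sources used, so reads of overlapping genes on opposite strands may not be told apart. Lines that name no gene were left out of library sizes. Reads in no gene made up 14.4% of unique alignments in the labelled knockout and 14.0% in wild type, and ambiguous reads 0.234% in the labelled knockout and 0.231% in wild type.

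Counts were scaled by TMM in edgeR 4.0.16 (R 4.3.3), with factors of 1.03 for the library labelled knockout and 0.972 for wild type. Log2 ratios, labelled knockout over wild type, used a prior count of 0.5, and printed ratios and their exact Clopper-Pearson intervals (95%) used the counts themselves. A gene was measured with 50 or more reads summed over both libraries. Reads carried no molecular identifiers and so are not independent molecules. The steps were tested on simulated data. Lengths, 50-base windows (exact matches on either strand), identities and loops came from GENCODE M21 on GRCm38, where all 63 symbols were found, and promoters from RefSeq GRCm38.p6, so no coordinates of the counted features on mm9 are given. Other scalings, with DESeq2 1.42.0 size factors among them, thinning, prior counts, read minimums, a 1.5-fold threshold and summed copies were tried. Python 3.11.15, numpy 2.4.6, scipy 1.17.1, pandas 2.3.3, matplotlib 3.10.9 and Biopython 1.88 were used.

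The members and lists were chosen with earlier results of these data known. Every symbol of the rule was counted, those measured could be named, 1 of them is not reported here, and each other list was given by its counts, its median and its 2 highest and 2 lowest measured genes, or for cell markers by its summed level.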

Additional observations from a re-analysis of the deposited data

Results flagged for a closer look

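Lines for alignments that were not unique lie outside the gene counts and were numerous in both libraries. They made up 58.0% of the lines counted, or 30368128, in the library labelled Lrg1 knockout and 50.3%, or 27554856, in wild type. They cannot be assigned to genes from the deposited counts, and they bear on Serpina1a and Serpina1c most, of whose 50-base windows 19.1% and 20.7% occur in no other gene.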

How the results depend on the processing

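The 3 members higher and the 1 lower by 2-fold stayed past that fold in the 29 measured genes under the other scalings, thinning of the deeper library and a prior count of 2, where 0 of 29 genes changed side. With the copies of Serpina1 and of Serpina3 summed, the counts were 2 higher and 1 lower of 21, where 1.69% and 2.50% of all genes passed. A minimum of 10 reads gave 5 higher and 3 lower of 35 members, where 3.47% and 3.97% of all genes passed. A minimum of 1 read gave 8 higher and 9 lower of 49 members, where 7.91% and 9.22% of all genes passed. Both minimums took in genes of few reads. The 1.5-fold threshold gave 5 lower of 29, where 6.91% of measured genes passed. The median log2 ratio of the members, -0.07, turned to 0.013 under scaling by total count and was -0.0105 when the total left out the 20 genes with the most reads. These scalings moved the median of all measured genes from -0.01 to 0.07 and 0.05. The sign changed in 5 genes near 0, Serpina12, Serpina1d, Serpinb1a, Serpinb6a and Serpinc1. Under thinning, the Serpin share of gene reads was 2.75% in the library labelled knockout and 2.46% in wild type. No paired analysis was possible because each group has 1 library. Depth limits the members with under 50 reads, for which no ratio is given.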
